A study of Mus musculus with 12 samples.

Results

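The proteasome is the protease that takes apart ubiquitin-tagged proteins, and its transcripts are described here in mouse bone marrow libraries labelled WT or U2af1KO. Genes were taken as members when their symbol was Psma, Psmb, Psmc, Psmd, Psme, Psmf or Psmg followed by digits only, with a mean above 0 in both deposited tables. Of 24533 gene rows in each table, 48 had such a symbol and 47 were members. Psmb11, the beta subunit of the thymus proteasome, was the exception: its mean was 0 in the LSK table and 0.28 normalised counts in the LinNeg table, where it had no adjusted p. Psmc3ip and Psme2b have letters after the digits and were left out.

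RNA was sequenced from 12 libraries of C57BL/6 mouse bone marrow in 4 groups of 3. The LinNeg groups, labelled WT and U2af1KO, were marrow cells depleted of lineage-positive cells on magnetic columns and then sorted. The LSK groups, also labelled WT and U2af1KO, were sorted for the LSK phenotype, in which lineage markers are absent and Sca-1 and c-Kit are present, a fraction that includes the stem cells. Their source label adds BMT, which is not spelled out, so a population effect and whatever BMT stands for cannot be told apart. The labels give neither age nor how U2af1 was deleted, and no agent is named for any group. U2af1 encodes the small subunit of the factor that recognises the 3' splice site. The labels do not say whether the 3 libraries of a group came from separate animals, so p-values reflect only how far these libraries vary. That variation may be technical. In LinNeg the log2 fold changes of the Y-linked genes listed below had standard errors from 1.45 to 1.99, beside a median of 0.28 over all genes tested. Whether the LinNeg KO libraries came from animals of different sex was not tested. Each deposited table holds the authors' comparison of KO with WT in 1 population, and values per library were not analysed here, so the depth of each library is unknown.

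The deposited tables give, per gene, the mean of normalised counts over the libraries of the comparison, the log2 fold change of KO over WT with its standard error, and the adjusted p of DESeq2. A gene was called when that adjusted p was under 0.05. For each label a mean was worked out from these (the derived mean), assuming 3 libraries per label, and it carries no error of its own. The standard errors differed between the populations, with a median over the members of 0.19 in LinNeg and 0.07 in LSK, so the same fold was called less readily in LinNeg. Over all genes tested the medians were larger, 0.28 and 0.13. The same fold was therefore called more readily in a typical member than in a typical gene, which limits the comparison of shares called. U2af1 itself goes against the labels: the authors' deposited tables put it at 0.65 (standard error 0.19, DESeq2 adjusted p = 0.00293) in LinNeg and at 0.61 (standard error 0.06, DESeq2 adjusted p = 1.72e-25) in LSK, higher under the KO label. The counts cover the whole gene, so whether a part of it was deleted cannot be read from them. Every direction below is therefore that of libraries labelled KO against libraries labelled WT, and KO and WT stand for these labels.

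Markers of several cell types differed between the labels, and their part in the results below was not tested. Over all genes tested 22.1% were called higher and 19.3% lower in LinNeg, and 32.4% and 29.2% in LSK. The stem cell marker Hlf had a derived mean of 12088 normalised counts under WT and 783 under KO in LSK, where 7 of 8 stem markers fell and 1 rose (in LinNeg 4 fell and 2 rose). Neutrophil granule genes were lower in 7 of 7 tested in LinNeg and higher in 8 of 8 in LSK, and erythroid genes were higher in 7 of 7 tested in both. The 5 neural transcripts listed were higher in both, with summed derived means of 556 and 2546 in LinNeg and of 13.7 and 2234 in LSK, under WT and KO. T and NK cell genes had 2 higher and 1 lower in LinNeg and 1 of each in LSK, and of 5 B cell genes 2 were lower in LinNeg and 1 in LSK. In the authors' deposited tables Xist was at 10.02 in LinNeg and 7.49 in LSK, and the 4 Y-linked genes listed lay between -9.21 and -8.95 in LSK and were not called in LinNeg. Under WT and KO the derived means of Xist were 40.0 and 41468 in LinNeg and 347 and 62360 in LSK. The Y-linked genes went from between 1895 and 2949 to between 3.33 and 4.99 in LSK, and had 754 to 1255 under KO in LinNeg. In LSK a difference in sex thus cannot be told apart from the KO label. Its part in the LinNeg values was not tested.

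The 20S core of the proteasome is a barrel of 4 rings. The outer rings are built of alpha subunits (Psma genes), which gate the entrance, and the inner rings of beta subunits (Psmb genes), some of which cut peptide bonds. The 19S regulatory particle caps the barrel: its base holds a ring of ATPases (Psmc genes) that unfold the substrate and push it in, and its lid (most Psmd genes) removes the ubiquitin chain. Under interferon, and constitutively in many blood cells, the catalytic subunits Psmb5, Psmb6 and Psmb7 are replaced by Psmb8, Psmb9 and Psmb10. This immunoproteasome, with its activator PA28 (Psme1 and Psme2), makes peptides that load well onto MHC class I. The Psmg genes encode chaperones that assemble the core, and Psmd5, Psmd9 and Psmd10 help assemble the 19S base.

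The members lay on 16 chromosomes. Psmb8 (mm10, chromosome 17, 34197721 to 34201454, plus strand) and Psmb9 (chromosome 17, 34181987 to 34187764, minus strand) sit in the MHC region beside the peptide transporter genes Tap1 and Tap2. Psme1 (chromosome 14, 55578123 to 55581529, plus strand) and Psme2 (chromosome 14, 55587441 to 55591113, minus strand) were 5911 bases apart. Psmb5 (chromosome 14, 54614119 to 54618022, minus strand), Psmb6 (chromosome 11, 70525367 to 70527858, plus strand), Psmb7 (chromosome 2, 38588036 to 38644087, minus strand) and Psmb10 (chromosome 8, 105935735 to 105938444, minus strand) lay elsewhere. The promoters of the pairs Psmb8 and Psmb5, and Psmb9 and Psmb6, are shown because each pair holds an interferon-inducible subunit and the constitutive subunit it replaces, and the results below compare them. Each is the 250 bases before the RefSeq start site (GRCm38.p6), at chr17:34197945-34198194, plus strand, chr14:54617996-54618245, minus strand, chr17:34187331-34187580, minus strand and chr11:70525107-70525356, plus strand, in that order. The gene bounds given above are those of GENCODE and differ from these start sites. The windows of Psmb8 and Psmb9 lie within the GENCODE bounds of their genes, and that of Psmb5 overlaps its gene in part. Capitals mark matches, on either strand, to a gamma-activated sequence (TTCNNNGAA), to an antioxidant response element (TGACNNNGC) or to the NF-Y box (CCAAT).
Psmb8: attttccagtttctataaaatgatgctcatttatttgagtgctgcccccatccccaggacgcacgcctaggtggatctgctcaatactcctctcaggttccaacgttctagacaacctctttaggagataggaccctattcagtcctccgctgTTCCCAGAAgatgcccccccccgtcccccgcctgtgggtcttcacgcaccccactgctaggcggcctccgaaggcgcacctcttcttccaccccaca
Psmb5: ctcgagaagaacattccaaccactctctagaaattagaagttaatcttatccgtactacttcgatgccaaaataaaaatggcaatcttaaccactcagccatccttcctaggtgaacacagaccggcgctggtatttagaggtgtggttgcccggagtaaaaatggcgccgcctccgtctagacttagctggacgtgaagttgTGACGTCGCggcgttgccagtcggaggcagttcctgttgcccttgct
Psmb9: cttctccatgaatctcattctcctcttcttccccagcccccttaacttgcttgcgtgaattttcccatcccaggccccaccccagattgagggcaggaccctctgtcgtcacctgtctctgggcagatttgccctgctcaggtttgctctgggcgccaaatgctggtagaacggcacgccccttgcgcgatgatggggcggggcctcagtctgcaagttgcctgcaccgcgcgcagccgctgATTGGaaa
Psmb6: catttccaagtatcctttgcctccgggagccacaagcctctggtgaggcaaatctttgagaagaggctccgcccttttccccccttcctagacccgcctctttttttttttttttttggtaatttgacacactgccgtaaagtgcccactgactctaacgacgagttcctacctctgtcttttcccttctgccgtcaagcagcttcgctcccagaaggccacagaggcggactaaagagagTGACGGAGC
The Psmb8 promoter held a gamma-activated sequence from 97 to 89 bases before the start. Those of Psmb5 and Psmb6 each held an antioxidant response element, the kind of site that NRF1 and NRF2 bind, from 47 to 39 and from 9 to 1 bases before the start. The Psmb9 promoter held an NF-Y box on the opposite strand, and its window of 300 bases shared 275 bases with that of Tap1, which is transcribed the other way.

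The same motifs were counted over the proteasome genes as a whole. RefSeq windows from 250 bases before to 50 after the start were found for 39 of the 47 members (42 windows). The antioxidant response element was in 14.3% of the member windows and in 12.4% of all 32851 windows. For the gamma-activated sequence the shares were 7.14% and 8.30%, for the NF-Y box 31.0% and 37.4%, and for the core of the interferon-stimulated response element, also on both strands, 11.9% and 3.44%. The first 3 motifs were thus about as frequent in member windows as in all windows, and the last was more frequent, on 5 windows. The 5 members with the last motif were Psmb3, Psmd4, Psmd9, Psme1 and Psmg4, of which only Psme1 is an immunoproteasome gene. A match is a stretch of letters, not a site in use.

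In LSK cells nearly the whole proteasome was higher in libraries labelled KO. Of 47 members 44 rose and 0 fell, against 32.4% of all genes tested called higher and 29.2% called lower (61.6% called in all). At an unadjusted p under 0.05 the DESeq2 count of members lower was also 0. The median log2 fold change was 0.80 over the members and 0.04 over all genes tested. Values ran from -0.07 (Psmb8) to 1.06 (Psmb3), so the largest rise was 2.09-fold. Only Psma8, Psmb8 and Psmb9 were not called.

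In LinNeg cells 29 of 47 members rose and 4 fell, against 22.1% of all genes tested called higher and 19.3% called lower (41.4% in all). The median was 0.56 over the members and 0.16 over all genes tested. Values ran from -1.11 (Psmb8) to 1.32 (Psmf1), a wider range than in LSK, and the 4 that fell were all immunoproteasome genes. Recentred on the median gene, 20 members rose and 4 fell, and the calls of Psma5, Psmb2, Psmb3, Psmb4, Psmc3, Psmc4, Psmd14, Psme4 and Psmg3 were lost. The 29 members that rose in LinNeg all rose in LSK too, 13 more rose in LSK without being called in LinNeg, Psme1 and Psme2 fell in LinNeg and rose in LSK, and Psmb8 and Psmb9 fell in LinNeg and were not called in LSK. Across the 47 members Pearson's r between the log2 fold changes of the tables, which share no library, was 0.75, and without the 5 immunoproteasome genes it was 0.63. Genes are not independent replicates, so these describe the members and carry no p.

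**Figure D1:**
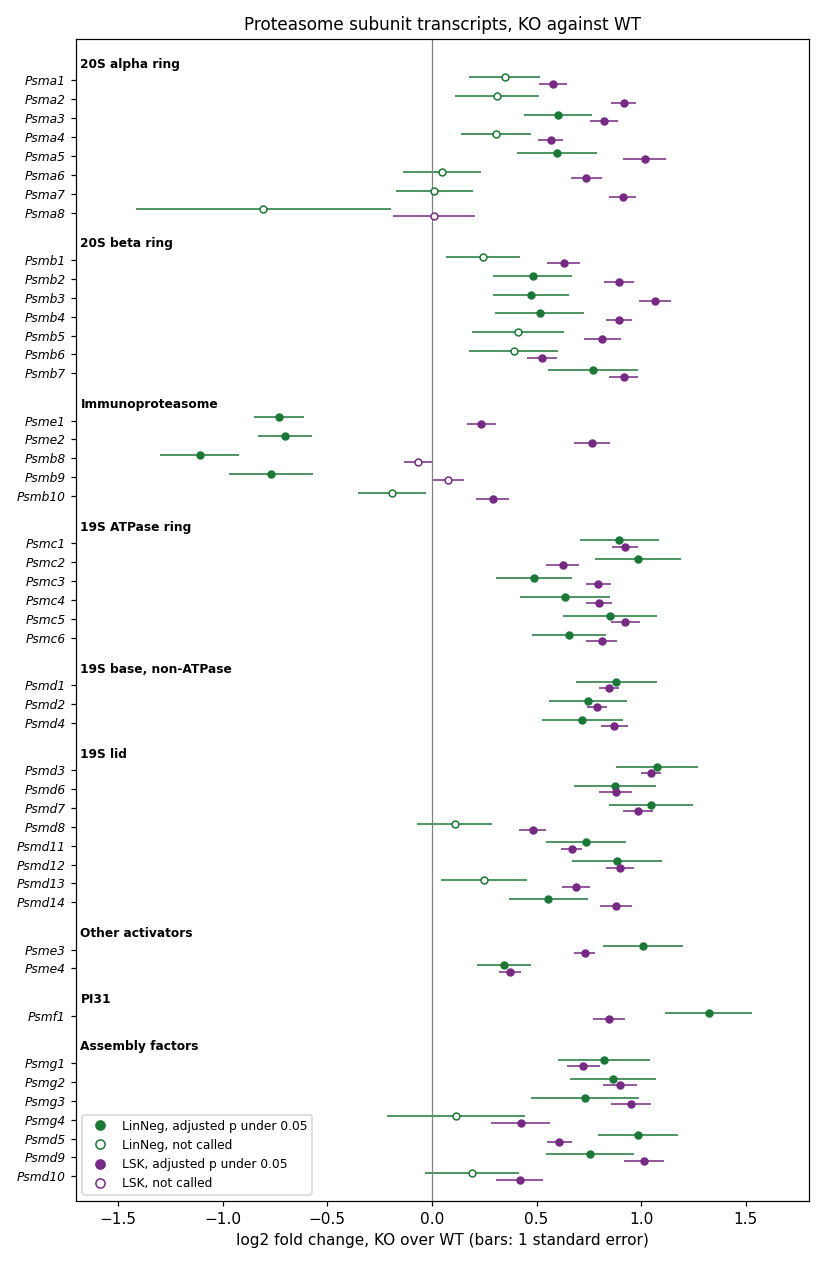
Log2 fold change of KO over WT (horizontal axis) for each of the 47 members, by class, in LinNeg (green) and LSK (purple), from the authors' deposited tables; bars are 1 standard error and filled points have an adjusted p under 0.05. The LSK points lie right of 0 apart from Psmb8, at -0.07, while the 5 immunoproteasome genes and Psma8 (-0.81, not called) lie left of 0 in LinNeg.

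Of the 5 immunoproteasome genes 4 fell in LinNeg, against 19.3% of all genes tested called lower. Psmb8, the inducible chymotrypsin-like subunit, had derived means of 4515 normalised counts under WT and 2093 under KO, a 2.16-fold fall. The authors' deposited table put it at -1.11 (standard error 0.19, DESeq2 adjusted p = 4.16e-08). Psmb9, which replaces Psmb6, went from 1304 to 766, at -0.77 (DESeq2 adjusted p = 0.000602, standard error 0.20) in the authors' deposited table. The PA28 subunits fell too. The authors' deposited table put Psme1, derived mean 4615 under WT and 2778 under KO, at -0.73 (DESeq2 adjusted p = 8.54e-09, standard error 0.12). For Psme2 the derived means were 3055 and 1877 and the value in the authors' deposited table -0.70 (standard error 0.13, DESeq2 adjusted p = 5.18e-07). All 4 changes were more than 3 times their standard errors. Psmb10, which replaces Psmb7, was not called: its derived means were 1501 and 1314, and its log2 fold change of -0.19 had a 95% interval from -0.51 to 0.13.

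In LSK the same 5 genes stood between no call and a moderate rise. The authors' deposited table gave Psmb8 -0.07 (standard error 0.07) and Psmb9 0.08 (standard error 0.08), neither called, with 95% intervals from -0.20 to 0.07 and from -0.08 to 0.23. Derived means were 4694 and 4482 for Psmb8 and 2056 and 2170 for Psmb9, under WT and KO. Psmb10 rose by 0.29 (standard error 0.08, DESeq2 adjusted p = 0.000393) and Psme1 by 0.24 (standard error 0.07, DESeq2 adjusted p = 0.00108) in the authors' deposited table. Psme2 rose most, from a derived mean of 1880 to 3195, by 0.76 in the authors' deposited table (standard error 0.09, DESeq2 adjusted p = 1.16e-17). The median of the 5 was 0.24 in LSK and -0.73 in LinNeg, where the other 42 members had medians of 0.82 and 0.62.

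Transcripts of monocytes, macrophages and dendritic cells were also lower under KO in LinNeg, and so were those of other cells. All 12 markers listed were lower there, with a summed derived mean of 75855 normalised counts under WT and 6799 under KO, and Siglech had a derived mean under 1 under KO. In LSK 3 of the 11 tested were higher and 3 lower, and the sums were 7066 and 7000. Neutrophil granule genes were lower in LinNeg too, with summed derived means of 87076 under WT and 4352 under KO. Erythroid genes were higher there, with sums of 12450 and 56944. The part of any of these cell types in the result was not tested. In bulk RNA, fewer cells of a type and less RNA per cell cannot be told apart.

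None of the constitutive counterparts of the exchanged subunits was called lower. In LinNeg the authors' deposited table gave Psmb7, the trypsin-like subunit, a rise of 0.77 (standard error 0.21, DESeq2 adjusted p = 0.00127), while Psmb5 (chymotrypsin-like) at 0.41 and Psmb6 (caspase-like) at 0.39 were not called, with 95% intervals from -0.02 to 0.84 and from -0.02 to 0.81. In LSK all 3 rose, Psmb7 by 0.92, Psmb5 by 0.81 and Psmb6 by 0.52 in the authors' deposited table. The ratio of inducible to constitutive transcript was therefore lower under KO in all 3 pairs and in both populations. For Psmb8 to Psmb5 it was 2.87-fold lower in LinNeg and 1.84-fold lower in LSK. For Psmb9 to Psmb6 it was 2.23-fold and 1.36-fold lower, and for Psmb10 to Psmb7 1.95-fold and 1.54-fold lower, in the same order. Both genes of a pair come from the same libraries, so the error of a ratio could not be had from the tables and the ratios were not tested.

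**Figure D2:**
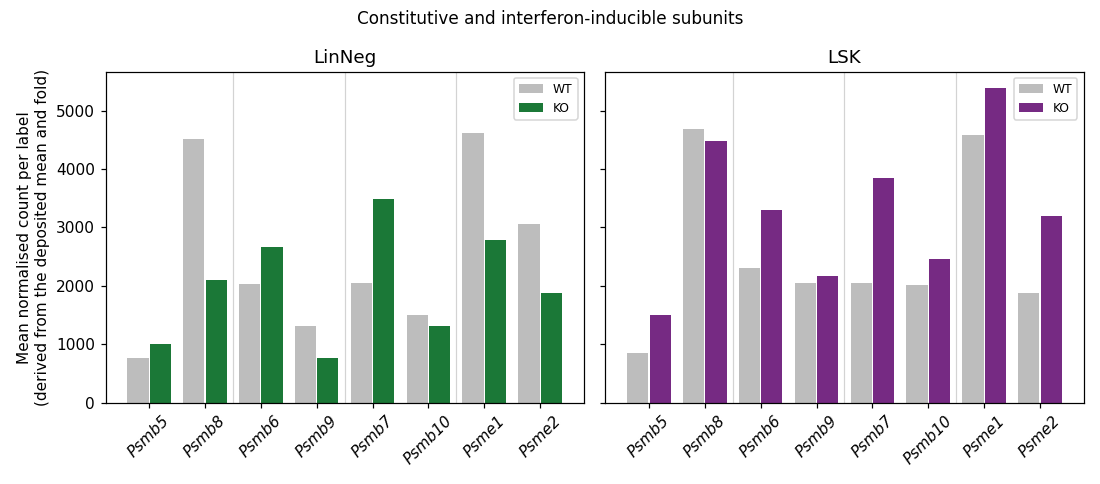
Mean normalised count (vertical axis) under WT (grey) and KO (coloured) for the 3 constitutive subunits, each beside the inducible subunit that replaces it, and for Psme1 and Psme2, in LinNeg (left) and LSK (right). Means were derived from the deposited mean and fold change and have no error bars; the tables were normalised separately, so heights are compared within a panel. Psmb8 stands at 4515 under WT and 2093 under KO in LinNeg, and at 4694 and 4482 in LSK.

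Most genes of the alpha ring of the 20S core rose in LSK, and most were not called in LinNeg. In LSK 7 of 8 alpha genes rose, with a median of 0.78, led in the authors' deposited table by Psma5 at 1.02 (standard error 0.10, DESeq2 adjusted p = 1.37e-22), from a derived mean of 2152 to 4353. In LinNeg 2 of 8 rose, at 0.60 each in the authors' deposited table (Psma3 with a standard error of 0.16 and Psma5 of 0.19). Only Psma3 did so when recentred on the median gene. Of all genes tested 22.1% were called higher in LinNeg and 32.4% in LSK, so the LinNeg alpha count is near the background. Psma6 and Psma7 had nearly equal derived means under both labels in LinNeg, 3229 and 3339 for Psma6 and 3959 and 3987 for Psma7. Their 95% intervals there ran from -0.32 to 0.42 and from -0.35 to 0.37, and both intervals end below the LSK estimates of 0.74 and 0.91. Psma1, Psma2 and Psma4 were at 0.35, 0.31 and 0.31 in the authors' deposited LinNeg table, not called. Psma8, a subunit of the testis proteasome, was the lowest member by mean (56.8 normalised counts in LinNeg and 339 in LSK) and was called in neither, at -0.81 in LinNeg (95% interval from -2.00 to 0.39) and 0.01 in LSK.

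The constitutive beta subunits rose in 7 of 7 in LSK (median 0.89) and in 4 of 7 in LinNeg (median 0.47), or 1 of 7, Psmb7, when recentred. Called higher over all genes tested were 32.4% in LSK and 22.1% in LinNeg, before recentring. Psmb3, a non-catalytic beta subunit, had the highest fold of any member in LSK: its derived mean went from 1676 to 3507, and the authors' deposited table put it at 1.06 (standard error 0.08, DESeq2 adjusted p = 6.7e-42). In LinNeg Psmb3 went from 2346 to 3258, and the authors' deposited table put it at 0.47 (standard error 0.18, DESeq2 adjusted p = 0.0268). Psmb2 and Psmb4, also non-catalytic, were at 0.48 and 0.51 in LinNeg (called) and 0.90 and 0.89 in LSK in the authors' deposited tables. Psmb1 was at 0.24 in LinNeg, not called, and at 0.63 in LSK.

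Of the 19S regulatory particle most genes rose in LinNeg and all in LSK, against 22.1% and 32.4% of all genes tested called higher. All 6 ATPases rose in each, with medians of 0.75 in LinNeg and 0.81 in LSK, and 4 of the 6 rose in LinNeg when recentred. Psmc2 was the highest of them in LinNeg, with derived means of 2423 and 4792 and 0.98 (standard error 0.21, DESeq2 adjusted p = 1.09e-05) in the authors' deposited table, and the lowest in LSK, at 0.63 (standard error 0.08). The base subunits Psmd1 and Psmd2, large scaffold proteins, and the ubiquitin receptor Psmd4 rose in both, between 0.72 and 0.88 in LinNeg and between 0.79 and 0.87 in LSK. The lid rose in 6 of 8 in LinNeg (median 0.81) and in 8 of 8 in LSK (median 0.88). Psmd3, a structural lid subunit, rose from a derived mean of 3450 to 7283 in LinNeg and from 4089 to 8451 in LSK. The authors' deposited tables gave it 1.08 (standard error 0.20, DESeq2 adjusted p = 3.18e-07) and 1.05 (standard error 0.05, DESeq2 adjusted p = 1.08e-101). Psmd7, partner of the deubiquitinase Psmd14, was at 1.05 and 0.98, and Psmd14 at 0.56 and 0.88, in LinNeg and LSK in the authors' deposited tables. Psmd8 and Psmd13 were the lid genes not called in LinNeg, at 0.11 (95% interval from -0.24 to 0.46) and 0.25 (from -0.15 to 0.65), and rose by 0.48 and 0.69 in LSK.

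Other activators, the regulator PI31 and most assembly factors also rose. Psmf1, which encodes PI31, was the highest member in LinNeg: its derived mean went from 1100 to 2751, 2.50-fold, and the authors' deposited table put it at 1.32 (standard error 0.21, DESeq2 adjusted p = 2.48e-09). In LSK it went from 1224 to 2203, at 0.85 (standard error 0.08). Psme3, the nuclear activator PA28 gamma, rose by 1.01 in LinNeg (standard error 0.19, DESeq2 adjusted p = 8.42e-07) and by 0.73 in LSK (standard error 0.05, DESeq2 adjusted p = 1.36e-45) in the authors' deposited tables, in contrast to its relatives Psme1 and Psme2 in LinNeg. Psme4, the activator PA200, rose by 0.34 and 0.37 in LinNeg and LSK. Of the 7 assembly factors 5 rose in LinNeg (median 0.76) and 7 in LSK (median 0.72), against 22.1% and 32.4% of all genes tested. The core chaperones Psmg1 and Psmg2 were at 0.82 and 0.87 in LinNeg and 0.72 and 0.90 in LSK, and Psmg3 at 0.73 and 0.95. The base chaperones Psmd5 and Psmd9 were at 0.98 and 0.76 in LinNeg and 0.61 and 1.01 in LSK, in the authors' deposited tables. Psmg4 and Psmd10 were not called in LinNeg, at 0.12 and 0.19, and rose by 0.42 each in LSK. Psmd10 is the member on the X chromosome, and the part of the Xist and Y-linked differences given above in its value was not tested.

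The KO effect differed between the populations for 9 of 47 members, all in the direction of a higher fold in LSK, against 17.4% of 15735 genes tested in both tables that were higher in LSK and 14.5% that were lower (31.9% in all). The LSK value minus the LinNeg value was divided by the standard error of that difference, taken from both deposited errors, in a two-sided normal test with Benjamini-Hochberg adjustment over all 15735 genes. The share of members called, at 9 of 47, is below that of all genes, and the calls fell in 3 of the 9 classes: immunoproteasome, 20S alpha and constitutive 20S beta. All 5 immunoproteasome genes passed. Psme2 differed most, by 1.47 (95% interval from 1.16 to 1.78, adjusted p = 4.02e-19), followed by Psmb8 by 1.04 (from 0.65 to 1.44, adjusted p = 2.41e-06) and Psme1 by 0.97 (from 0.70 to 1.24, adjusted p = 4.3e-11). Psmb9 differed by 0.85 (adjusted p = 0.000565) and Psmb10 by 0.48 (adjusted p = 0.0261). The others were 4 core genes: Psma7 by 0.90 (from 0.52 to 1.28, adjusted p = 3.33e-05), Psma6 by 0.69 (adjusted p = 0.00323), Psma2 by 0.61 (adjusted p = 0.0145) and Psmb3 by 0.59 (adjusted p = 0.0123).

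Among members of the 19S, other activator, PI31 and assembly factor classes, differences ran from -0.47 (Psmf1, 95% interval from -0.91 to -0.04, adjusted p = 0.0886) to 0.44 (Psmd13, from 0.01 to 0.86, adjusted p = 0.113). None of these members passed this test. The intervals were wide, so this does not show that the effects were equal: for the lid subunit Psmd3, for example, the difference was -0.03 with a 95% interval from -0.43 to 0.36. The number smaller in LSK was 0, and 1, Psmf1, at an unadjusted p under 0.05. All 8 alpha and all 7 constitutive beta genes had a positive difference (medians 0.51 and 0.39), while the ATPase ring and the lid had medians of 0.12 and 0.01. Recentring both tables on their median genes raised the count from 9 to 14, adding Psma5, Psmb1, Psmb2, Psmd8 and Psmd13.

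**Figure D3:**
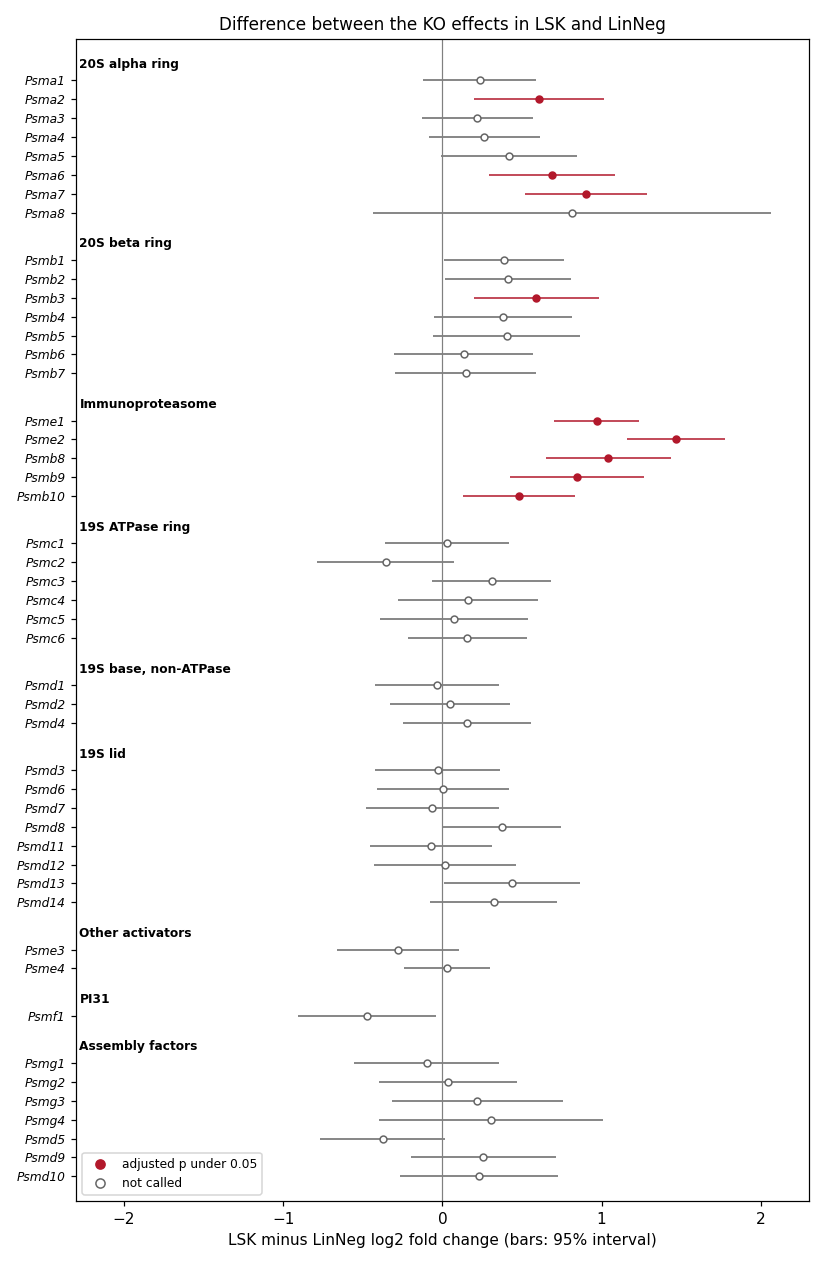
LSK log2 fold change minus LinNeg log2 fold change (horizontal axis) for each of the 47 members, by class; bars are 95% intervals and filled red points have an adjusted p under 0.05 over all 15735 genes. The filled points are the 5 immunoproteasome genes and Psma2, Psma6, Psma7 and Psmb3; the 19S points scatter on both sides of 0.

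Levels were compared between members per kilobase of annotated exon, within each table. In LSK the highest were Psme3 at 2933 normalised counts per kb and Psma6 at 2818, and the lowest were Psmd9 at 135.6 and Psma8 at 135.8, beside a median of 1104. In LinNeg Psma6 was highest at 2661 and Psma8 lowest at 22.8, with a median of 937. The assembly factors, which are not part of the finished protease, had medians of 489 in LSK and 445 in LinNeg, below those of every 20S and 19S class. Psmb8 stood at 1357 and Psmb5 at 1306 in LSK, and at 977 and 981 in LinNeg, per kb of all exons. These levels depend on the length used: per kb of the longest transcript Psmb8 stood at 2406 in LSK and 1733 in LinNeg, above Psmb5 at 1306 and 981. With that length 6 of the 10 highest members remained among the 10 highest in LinNeg and 5 in LSK.

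Some members share sequence with other genes, and their counts are uncertain to that extent. Of the 47, 16 had a stretch of at least 200 bases at 95% identity or more in the transcript of another gene, and for 10 this was a pseudogene. Psmb3 and Psma3 had 3 such pseudogenes each. The other 6 were Psmb7 (with Nek6), Psmb9 (with Tap1), Psmd1 (with Gm21972), Psmd13 (with Sirt3), Psmg3 (with Gm26938) and Psme2, which matched Psme2b over 794 bases at 99.4%. Psme2b had a mean of 137 normalised counts in LinNeg and 73.9 in LSK and fell by 1.23 and 1.32 on the log2 scale in the authors' deposited tables, so its LSK direction was opposite to that of Psme2. Psmb9 and Tap1 overlap by 212 bases on opposite strands, and whether counting used strand is not given in the sources used here. Tap1 stood at -0.71 in LinNeg and 0.09 in LSK, near the values of Psmb9.

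Other genes of the pathway were read from lists, whose counts stand beside 22.1% higher and 19.3% lower of all genes tested in LinNeg and 32.4% higher and 29.2% lower in LSK. Of 10 further proteasome parts and partners found, 3 rose and 0 fell in LinNeg (1 lower at an unadjusted p under 0.05 with DESeq2), and 6 rose and 2 fell in LSK. The 3 with the smallest adjusted p were the same in both tables: the deubiquitinase Usp14, which sits on the cap, at 1.07 and 0.73, and the ubiquitin receptor Adrm1 at 0.86 and 0.95, in LinNeg and LSK in the authors' deposited tables, and the thioredoxin-like Txnl1. The derived means of Txnl1 went from 1926 to 3430 in LinNeg and from 2473 to 4939 in LSK. Sem1 (older symbol Shfm1), a 19S part outside the symbol rule, was at -0.47 in LinNeg, not called, and at 0.92 in LSK. Its difference between populations, 1.39, passed the two-sided normal test (adjusted p = 1.43e-07). In the same list Ube3c and Zfand5 passed in the other direction, at -0.61 and -0.63. Shuttle proteins and the segregase p97 with its cofactors rose in 7 and fell in 1 of 10 in LinNeg and rose in 9 and fell in 1 in LSK. Ubiquitin and E1 genes were called in 0 of 6 in LinNeg by DESeq2 (0 at an unadjusted p under 0.05) and rose in 4 of 6 in LSK.

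NRF1 switches on proteasome genes when the protease falls short. Of 9 genes of its route, 1 rose and 3 fell in LinNeg and 4 rose and 0 fell in LSK. At an unadjusted p under 0.05 with DESeq2, 5 were lower in LinNeg and 0 in LSK. Of all genes tested 22.1% were called higher and 19.3% lower in LinNeg, and 32.4% higher and 29.2% lower in LSK. The list holds only 9 genes, so these counts are not taken as a result about the route. Nfe2l1, the gene of NRF1, was at -0.49 (standard error 0.17, DESeq2 adjusted p = 0.0117) in LinNeg and -0.04 in LSK, not called, in the authors' deposited tables. Its partner Mafg was lower in LinNeg, at -0.82, and higher in LSK, at 0.24 (DESeq2 adjusted p = 0.0135), in the authors' deposited tables. The related factor Nfe2l2 was at -0.13 in LinNeg, not called, and at 0.74 in LSK, in the authors' deposited tables. Ddi2, the protease that activates NRF1, rose by 0.52 and 0.61 in LinNeg and LSK in the authors' deposited tables.

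Of the MHC class I loading genes in LinNeg 0 of 11 rose and 6 fell (0 higher and 7 lower at an unadjusted p under 0.05 with DESeq2), with a median of -0.56, against 22.1% of all genes called higher and 19.3% lower. Calr was at -1.29, Tapbp, which tethers empty MHC class I to the transporter, at -0.96 and Pdia3 at -0.92 in the authors' deposited table. The class I chains H2-K1 (0.39) and H2-D1 (-0.19) and their partner B2m (0.10) were not called in LinNeg. Nor were Canx (-0.12) and Tapbpl (-0.51). In LSK 4 rose and 3 fell, near the 32.4% and 29.2% of all genes. There the chaperones Canx, Calr and Pdia3 were at 0.80, 0.75 and 0.73, and the transporter subunit Tap2 at -0.57 (-0.86 in LinNeg), in the authors' deposited tables. Of 11 interferon regulators 1 rose and 7 fell in LinNeg and 3 rose and 4 fell in LSK. The LSK counts are near the 32.4% higher and 29.2% lower of all genes, while in LinNeg 19.3% of all genes were lower. Irf8, also a factor of the monocyte and dendritic lineage, was at -6.07 in LinNeg and -1.49 in LSK in the authors' deposited tables. The 1 that rose in LinNeg was Nlrc5, at 1.88 (standard error 0.32, DESeq2 adjusted p = 6.61e-08). In LSK Nlrc5 was at 0.15, not called.

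**Figure D4:**
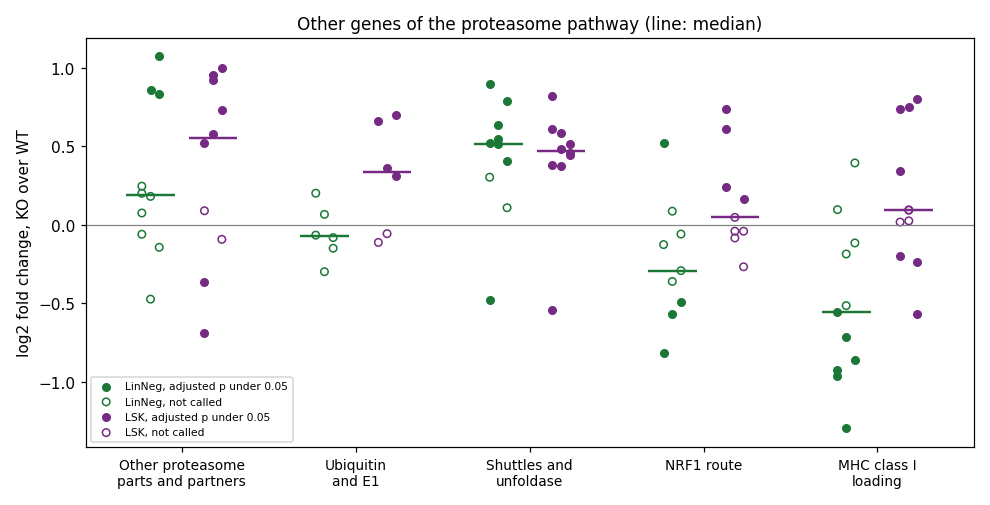
Log2 fold change of KO over WT (vertical axis) for the genes of 5 further lists (horizontal axis) in LinNeg (green) and LSK (purple), from the authors' deposited tables; each point is 1 gene, filled where the adjusted p is under 0.05, and the line is the median. The shuttle list lies mostly above 0 in both populations (medians 0.52 and 0.47), and the MHC class I list has a median of -0.56 in LinNeg and 0.09 in LSK.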

How the data were processed

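Per the labels' protocols, libraries were made from rRNA-depleted total RNA of lineage-depleted, sorted marrow cells. The submitters' processing notes name the build mm10 and DESeq2, StringTie, HISAT2 and SAMtools 1.10. Which program counted reads, and on which annotation, is not given in the sources used here.

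The deposited tables hold, per the file headers, the mean of normalized counts (a signal on a linear scale), the log2 fold change with a standard error (also log2), the Wald statistic (a score), and the p-value and adjusted p-value of DESeq2, run by the authors. Depth per library is unknown. From these were computed log2 fold changes as statistic times standard error (the deposited ones are rounded), derived means per label, the test of the difference between populations, and summaries per class. Left out of each were 5 rows that name no gene and 4 with repeated symbols. Of the mean normalised counts summed over all rows, including those that name no gene, 38.0% in LinNeg and 26.4% in LSK were assigned to no feature. Tested on simulated data (15735 genes, real standard errors), the difference test recovered 68% of genes changed by 1 on the log2 scale and 95% of those changed by 2. The changed genes all had means of at least 100 in both populations, and their share was far below the 31.9% called in the data. The recovery may thus differ for other genes and for the real adjustment.

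Coordinates and exon lengths come from GENCODE M21 (mm10), promoters from RefSeq (GRCm38.p6), and similar transcripts from BLAST 2.17.0 (megablast). Older symbols were used for Sem1, Ufd1 and Ecpas, and Paaf1 was not analysed here. Members and lists were chosen with earlier results of these data known. Genes named are the immunoproteasome genes and their counterparts, the 4 highest and lowest called members per table, the 3 largest differences between populations, those not called, those with extreme levels per kb, and up to 3 per further list by adjusted p. Other names, among them Nfe2l1, Tap1, Tap2, Psme2b and the remaining members, were added after their values were seen. Some genes that this rule names are not reported here. Alternatives were other thresholds, adjustment over every gene, recentring on the median gene, a minimum fold or mean, weighted means and another length. Computation used matplotlib 3.10.9, scipy 1.17.1, numpy 2.4.6 and pandas 2.3.3 under Python 3.11.15.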

Additional observations from a re-analysis of the deposited data

Results flagged for a closer look

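The test of the difference between populations singled out 9 members, each with a higher log2 fold change in LSK than in LinNeg. The differences were 1.47 for Psme2, 1.04 for Psmb8, 0.97 for Psme1, 0.90 for Psma7, 0.85 for Psmb9, 0.69 for Psma6, 0.61 for Psma2, 0.59 for Psmb3 and 0.48 for Psmb10. All 9 were also called when both tables were recentred and when genes with means under 100 were left out.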

How the results depend on the processing

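No value per library was used, so leaving out a replicate was not run. No paired analysis was possible because the tables give no values per library. The LinNeg count of 29 higher ranged from 20 to 30 over the alternatives and the 4 lower stayed at 4; the LSK count of 44 higher ranged from 35 (at least 1.5-fold) to 44, and 0 lower stayed at 0. Recentring on the median gene (0.16 in LinNeg, 0.04 in LSK) ended 9 LinNeg calls, turned the LinNeg values of Psma6 to -0.11, Psma7 to -0.15, Psmd8 to -0.047 and Psmg4 to -0.040 and the LSK value of Psma8 to -0.033, none of them called either way. It raised the members that differ between populations from 9 to 14, and a threshold of 0.01 left 6. The weighted mean of the constitutive beta class in LSK was 0.82 in place of a median of 0.89. With the longest transcript as length, 6 of the 10 highest members per kb remained in LinNeg and 5 in LSK. The larger standard errors in LinNeg limit what could be called there.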
